A study of Homo sapiens with 15 samples.

Results

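Iron handling was followed through 10 genes in human ASC52 cells: the metalloreductases STEAP1, STEAP2, STEAP3 and STEAP4, the transferrin receptor TFRC, the ferritin heavy chain FTH1, the iron exporter SLC40A1 (ferroportin), the metal importer SLC39A14, and the iron-binding and siderophore-binding proteins LTF (lactoferrin) and LCN2 (lipocalin 2). The set was chosen by the rises of STEAP4 and STEAP2 in conditioned medium, among the largest of that comparison, so the values of the 10 genes in conditioned against control medium are a description here and carry no test. A probe set was matched to 9 of the 10 genes among the 17687 genes of the array; FTH1 was not matched and is not analysed here. Each of the 9 had a single probe set.

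ASC52 is a mesenchymal stem cell line from human fat, immortalised with hTERT, and every group below is this 1 line. The MSC group is the undifferentiated line, seeded in MesenPRO RS. The MA group (mature adipocytes) was put into StemPRO adipogenesis medium 3 days after seeding, kept there for 14 days, and then held for 7 days in control medium, which was RPMI with 10% FBS. The DED group had the same differentiation and then 7 days in RPMI with 10% FBS that MDA-MB-231 cells, an established line of human breast cancer, had conditioned; the submitters call these cells dedifferentiated adipocytes. Each group had 5 single-colour arrays. The labels do not tell whether the 5 are separate cultures, and p-values measure the spread among them, which may be technical. When the MSC cells were harvested is not given in the sources used here. MA and MSC differ in differentiation and in medium and may differ in time in culture, and these cannot be told apart here.

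Cells take up most of their iron as transferrin-bound ferric iron through TFRC. In the acidic endosome a STEAP reductase turns it into ferrous iron, which SLC11A2 (DMT1) carries into the cytosol, where it is used, stored in ferritin or exported by SLC40A1. STEAP proteins also reduce copper before it enters through SLC31A1. STEAP1 lacks the NADPH-binding domain of the other members and takes its electrons through partners such as STEAP2. STEAP4 is known in adipose tissue as a gene induced by TNF and other inflammatory signals. Iron regulatory proteins, such as the one encoded by ACO1, stabilise TFRC transcripts and block translation of ferritin and ferroportin when iron is low.

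The stretches before the transcript starts of STEAP4, STEAP2 and STEAP1 are shown because these genes were high together in DED, and that of LCN2 because it was near background in every group although inflammatory signals are known to induce it. They are the 250 bases before the start in RefSeq, build GRCh38.p14, and 8 of the 10 genes had such a window (11 windows in all). Capitals mark matches to 3 motifs on either strand, which do not overlap: the NF-kappaB consensus, the STAT motif TTCNNNGAA and the C/EBP motif TTGCNNAA. For STEAP2 the first of 2 windows is shown.
STEAP4, chr7:88306895-88307144, minus strand: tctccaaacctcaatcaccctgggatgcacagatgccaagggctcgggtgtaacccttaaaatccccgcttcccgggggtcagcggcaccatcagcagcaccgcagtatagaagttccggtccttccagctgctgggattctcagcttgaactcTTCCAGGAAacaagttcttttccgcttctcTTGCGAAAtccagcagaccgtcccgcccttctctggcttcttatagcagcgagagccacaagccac
STEAP2, chr7:90211490-90211739, plus strand: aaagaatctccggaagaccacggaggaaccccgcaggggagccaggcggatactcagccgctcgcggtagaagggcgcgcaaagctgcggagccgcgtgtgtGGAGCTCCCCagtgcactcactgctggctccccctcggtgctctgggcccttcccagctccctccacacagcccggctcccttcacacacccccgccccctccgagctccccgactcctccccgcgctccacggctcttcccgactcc
STEAP1, chr7:90154219-90154468, plus strand: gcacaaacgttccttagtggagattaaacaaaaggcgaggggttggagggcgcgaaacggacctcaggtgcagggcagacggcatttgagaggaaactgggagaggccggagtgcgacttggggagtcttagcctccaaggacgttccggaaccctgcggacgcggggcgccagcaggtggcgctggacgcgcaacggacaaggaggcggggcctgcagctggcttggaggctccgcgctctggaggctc
LCN2, chr9:128149203-128149452, plus strand: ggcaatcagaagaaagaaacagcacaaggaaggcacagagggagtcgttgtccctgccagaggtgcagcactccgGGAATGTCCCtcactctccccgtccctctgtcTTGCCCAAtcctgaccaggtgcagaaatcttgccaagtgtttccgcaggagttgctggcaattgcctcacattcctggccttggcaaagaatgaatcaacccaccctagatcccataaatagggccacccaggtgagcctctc

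STEAP4 held a STAT match, TTCCAGGAA, from 96 to 88 bases before the start and a C/EBP match, TTGCGAAA, from 66 to 59 bases before it. STEAP2 held 1 NF-kappaB match, GGAGCTCCCC, from 148 to 139 bases before the first start. LCN2 held an NF-kappaB match, GGAATGTCCC, from 175 to 166 bases and a C/EBP match from 143 to 136 bases before the start, and STEAP1 held none of the 3. LTF, low in DED, held a STAT match, TTCCTGGAA, from 42 to 34 bases before its first start and a C/EBP match from 59 to 52 bases before its second. The hypoxia motif ACGTG was found in the TFRC window, from 88 to 84 bases before the start, and in no other window of the 10 genes. Of 35116 windows of this length, 9.96% held the NF-kappaB consensus, 6.57% the STAT motif, 9.05% the C/EBP motif and 18.5% ACGTG. A match is a description of letters and not a binding site.

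The arrays were first checked against their labels. Of 12 adipocyte markers, 1 (DGAT2) lay above 8.31 (log2 intensity), the 95th percentile of 612 negative control probe sets and called the background limit below, in MSC, 11 in MA and 8 in DED, and the list mean per array ran from 5.67 to 5.93, from 12.29 to 12.45 and from 9.44 to 11.09. All 9 fibroblast and stem cell markers were above it in each group. No neutrophil marker of 11 was above it in any group. Of 11 macrophage markers CD68 was above it in MSC, CD68 and MARCO in MA and MARCO in DED, and of 11 epithelial markers KRT8 alone was above it, in all groups. DED arrays 1 and 3 stood furthest apart within a group (lowest correlation over genes 0.982 in DED, against 0.992 in MSC and MA), with array 1 highest in adipocyte markers at 11.09 and array 3 lowest at 9.44. Differences of the STEAP genes from DED are given with and without these arrays. In such bulk samples fewer cells of a type and less RNA per cell cannot be told apart.

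**Figure D1:**
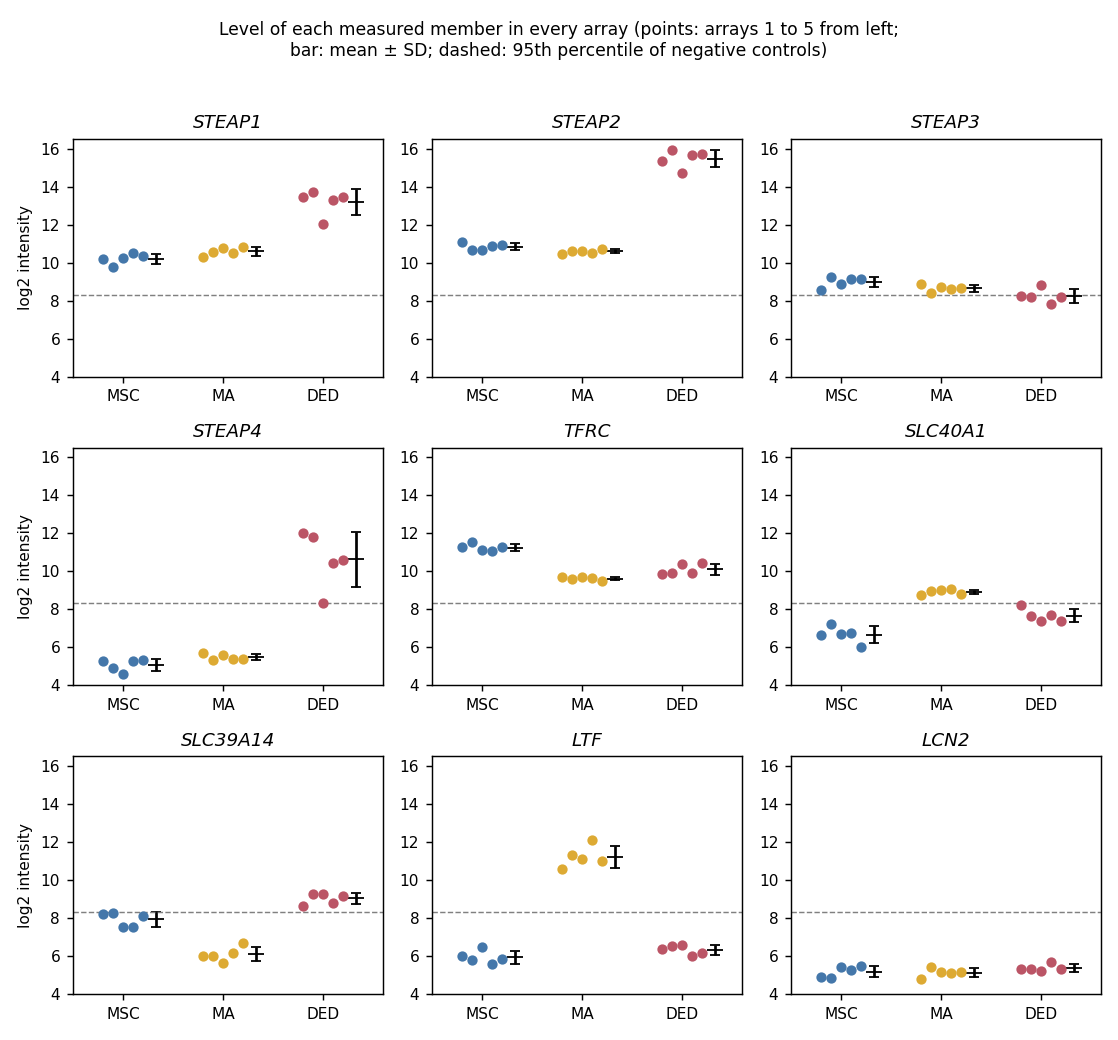
Log2 intensity (vertical axes) of the 9 measured genes in each of the 15 arrays, by group; points are arrays 1 to 5 from left to right, the bar beside them is the mean ± SD, and the dashed line is the background limit (8.31). STEAP1 and STEAP2 are above the dashed line in all groups and highest in DED. STEAP4 is above it in DED alone, LTF in MA alone, and LCN2 stays under the dashed line throughout.

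Conditioned medium came with higher levels of STEAP4, STEAP2 and STEAP1 and with no such difference in STEAP3. STEAP4, a plasma membrane and endosomal reductase, was at 12.01, 11.78, 8.32, 10.43 and 10.58 in DED arrays 1 to 5 (log2 intensity). It was at 5.72, 5.35, 5.57, 5.37 and 5.40 in MA arrays 1 to 5, and at 5.27, 4.89, 4.59, 5.29 and 5.34 in MSC arrays 1 to 5. Every DED array was above every other array, by at least the gap between 8.32 and 5.72, and array 3 stood at the background limit while the other DED arrays were far above it. The mean was 10.62 ± 1.47 (SD, n = 5) in DED, 5.48 ± 0.16 in MA and 5.08 ± 0.33 in MSC. The log2 difference was 5.14 (SE 0.44) from MA and 5.55 (SE 0.44) from MSC, and without DED arrays 1 and 3 it was 5.45 (SE 0.25) and 5.85 (SE 0.25). Each SE here and below rests on 1 spread shared by all groups. STEAP4, STEAP2 and STEAP1 spread more in DED than in MA and MSC, so these SEs understate the uncertainty of their DED differences. Arrays 1 and 3 held the highest and lowest STEAP4 values of DED, so the smaller SE follows from their removal and is not added precision. Array 3 was also the lowest of DED in STEAP2 and STEAP1 below. The MA and MSC means lay under the background limit. The size of the STEAP4 difference therefore depends on background and is not given as a fold.

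STEAP2, which reduces iron and copper and cycles between the Golgi, the surface and endosomes, was at 15.35, 15.92, 14.72, 15.69 and 15.72 in DED arrays 1 to 5. The MA arrays were at 10.45, 10.62, 10.62, 10.53 and 10.73, and the MSC arrays at 11.06, 10.65, 10.67, 10.89 and 10.95. All groups were above background, and the DED arrays were clear of both others. The mean was 15.48 ± 0.47 in DED, 10.59 ± 0.11 in MA and 10.84 ± 0.18 in MSC (SD, n = 5). The difference from MA was 4.89 (SE 0.17), or 29.7-fold, and that from MSC was 4.64 (SE 0.17), or 24.9-fold. Without DED arrays 1 and 3 they were 5.19 (SE 0.12) and 4.93 (SE 0.12).

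STEAP1, the member without its own NADPH site, was at 13.46, 13.73, 12.02, 13.28 and 13.46 in DED arrays 1 to 5. It was at 10.29 to 10.84 in MA and at 9.75 to 10.48 in MSC, with means of 13.19 ± 0.67, 10.59 ± 0.22 and 10.20 ± 0.28 (SD, n = 5). DED was higher by 2.602 (SE 0.24) than MA, or 6.07-fold, and by 2.99 (SE 0.24) than MSC, or 7.97-fold. Without DED arrays 1 and 3 these differences were 2.902 (SE 0.17) and 3.29 (SE 0.17).

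The probe set of STEAP1B, a close copy of STEAP1 elsewhere on chromosome 7, followed STEAP1 almost array by array. The STEAP1 value minus the STEAP1B value was between 0.52 and 1.38 in all 15 arrays and between 0.90 and 1.06 in DED. The Pearson correlation was 0.991 over the 15 arrays and 0.906 for deviations from group means, given as a description. STEAP1B was higher by 2.45 in DED than in MA (SE 0.25), given without a test because it followed STEAP1, a gene of the chosen set. Whether both probe sets bind the same transcripts was not tested, so the 2 genes cannot be counted as separate changes.

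STEAP3, the endosomal reductase of red cell precursors, was at 8.23, 8.21, 8.81, 7.81 and 8.19 in DED arrays 1 to 5, at 8.38 to 8.89 in MA and at 8.58 to 9.22 in MSC. Its means of 8.25 ± 0.36, 8.65 ± 0.19 and 9.0 ± 0.27 (SD, n = 5) lay close to the background limit, and each pair of groups overlapped. The difference of DED from MA was -0.40 (SE 0.16) and that from MSC -0.75 (SE 0.16), and without DED arrays 1 and 3 they were -0.58 (SE 0.16) and -0.93 (SE 0.16). Its DED level was not above those of the other groups.

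The arrays of DED were not alike in this family. STEAP4 spanned 3.69 log2 units within DED against 0.37 in MA and 0.75 in MSC, where the median gene spanned 0.54, 0.50 and 0.47, and 99.94% of genes had a smaller SD in DED. STEAP1 spanned 1.71 and STEAP2 1.20 within DED. DED array 3 was lowest in all 3 genes, as it was in adipocyte markers (list mean 9.44). DED array 1 was highest in STEAP4 and in adipocyte markers (11.09, against 9.44 to 10.03 in the other DED arrays), but below arrays 2, 4 and 5 in STEAP2. The part of fat cell content in this spread was not tested.

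**Figure D2:**
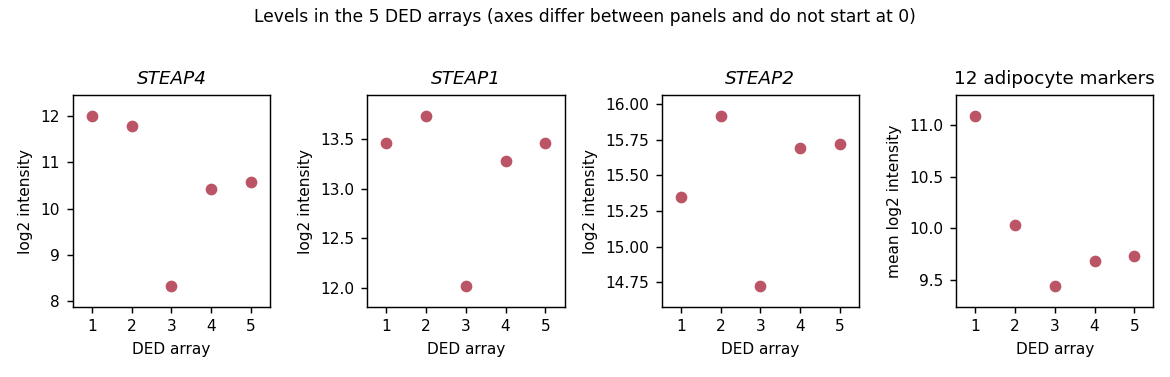
Log2 intensity of STEAP4, STEAP1 and STEAP2, and the mean log2 intensity of 12 adipocyte markers, in DED arrays 1 to 5; each point is 1 array and the vertical axes differ between panels. Array 3 is lowest in each panel, at 8.32 for STEAP4, 12.02 for STEAP1, 14.72 for STEAP2 and 9.44 for the markers.

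Genes whose levels were most like those of the family are given as a description, without a test, over 15 arrays that share their groups. For STEAP4 the closest genes over all arrays were STEAP1B (r = 0.985), STEAP1 (0.984), the interferon-induced membrane protein gene IFITM1 (0.977), the collagen COL12A1 (0.975) and the chemokine receptor ACKR3 (0.973). For STEAP2 they were RAB31, a small GTPase of membrane traffic (0.993), ORMDL1 (0.986), MGAT4C (0.981), the haptoglobin-hemoglobin receptor CD163 (0.979) and the TGF-beta receptor TGFBR1 (0.978). All group means of MGAT4C were under the background limit, as were those of CD163 in MA and MSC. After subtraction of group means, STEAP4 was closest to the matrix genes OMD (0.967), DCN (0.945) and LUM (0.945) and to MASP1 (0.958) and ZNF106 (0.95). STEAP2 was then closest to PTGFR (0.925), CHEK1 (0.912), SMARCC2 (0.903), FAM20A (0.901) and OFD1 (0.893). Within DED these 10 genes, like STEAP4 and STEAP2, were lowest in array 3, for example OMD at 10.01, 9.95, 7.51, 8.74 and 9.0 in arrays 1 to 5.

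STEAP4, STEAP1 and STEAP2 lie on chromosome 7 in this order, with the measured protein-coding genes ZNF804B and TEX47 between STEAP4 and STEAP1. Neither passed the test in DED against MA: ZNF804B was at 0.10 (SE 0.13, limma adjusted p = 0.65) and TEX47 at 0.12 (SE 0.14, adjusted p = 0.62). Both lay under the background limit in all groups, with MA and DED means of 4.03 and 4.14 for ZNF804B and 5.48 and 5.59 for TEX47. At such levels a difference near 0 cannot show whether a gene changed. CFAP69, next after STEAP2, rose by 2.14 (SE 0.23, limma adjusted p = 3.7e-07), from 6.41 ± 0.51 to 8.55 ± 0.46 (SD, n = 5), and CLDN12, a claudin, rose by 0.75 (SE 0.19, adjusted p = 0.0046). The MA means of CFAP69 and CLDN12 were under the background limit, so that the sizes of these rises depend on background. On the far side of STEAP4, SRI fell by 0.36 (SE 0.10, limma adjusted p = 0.0090), a call lost without DED arrays 1 and 3 (adjusted p = 0.054). ADAM22 was at -0.016 (SE 0.21, adjusted p = 0.97), and DBF4, a cell cycle kinase subunit, fell by 0.82 (SE 0.17, limma adjusted p = 0.0011). The means of ADAM22 and DBF4 were under the background limit in MA and DED. CDK14, beyond CLDN12, was at -0.42 (SE 0.15, limma adjusted p = 0.036), which missed the threshold without any 1 of MA arrays 2 to 5 or DED arrays 1, 3 or 5 (adjusted p from 0.054 to 0.091).

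**Figure D3:**
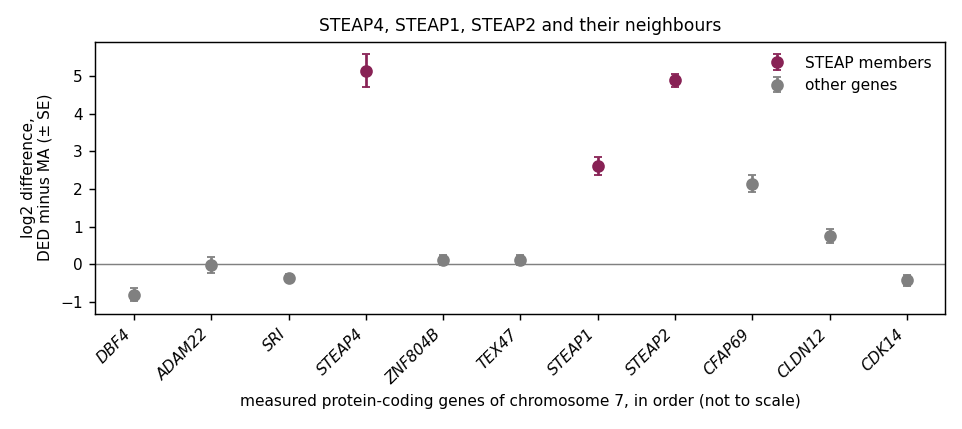
Log2 difference of DED minus MA (points) with its SE (bars) for STEAP4, STEAP1, STEAP2 and the nearest measured protein-coding genes, in their order on chromosome 7 and not to scale. The 3 STEAP genes stand at 5.14, 2.602 and 4.89, CFAP69 at 2.14, and ZNF804B and TEX47, between STEAP4 and STEAP1, near 0. ZNF804B, TEX47 and ADAM22 were under the background limit in MA and DED, where a difference near 0 cannot show whether a gene changed.

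The importers TFRC and SLC39A14 were lower and the exporter SLC40A1 was higher in MA than in MSC. TFRC, which brings in transferrin, was at 11.26, 11.54, 11.12, 11.06 and 11.27 in MSC arrays 1 to 5. In MA it was at 9.68, 9.57, 9.72, 9.63 and 9.49, and in DED at 9.84, 9.92, 10.37, 9.91 and 10.46. The groups did not overlap, in the order MSC, DED, MA. TFRC fell by 1.63 in MA against MSC (SE 0.13, limma adjusted p = 4.4e-09), to 0.323 times its level. The level in DED was higher than in MA by 0.48 (SE 0.13), or 1.40-fold, and lower than in MSC by 1.15 (SE 0.13), given without a test.

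SLC40A1, the only known exporter of ferrous iron, took the reverse order. It was at 8.76, 8.96, 9.0, 9.04 and 8.78 in MA arrays 1 to 5. The DED arrays stood at 8.22, 7.67, 7.36, 7.70 and 7.36, and the MSC arrays at 6.63, 7.23, 6.70, 6.74 and 6.02. No groups overlapped, and MA alone was above the background limit, so that sizes depend on background. SLC40A1 rose by 2.24 in MA against MSC (SE 0.19, limma adjusted p = 5.5e-09). In DED it was lower than in MA by 1.25 (SE 0.19) and higher than in MSC by 1.00 (SE 0.19). DED array 1, the highest of its group, was also the one highest in adipocyte markers; the part of this in the value was not tested.

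SLC39A14 (ZIP14), which carries iron not bound to transferrin, zinc and manganese, was lowest in MA. Its values there were 6.0, 6.02, 5.62, 6.14 and 6.70 in arrays 1 to 5, against 8.23, 8.26, 7.51, 7.52 and 8.09 in MSC and 8.63, 9.26, 9.27, 8.81 and 9.17 in DED. The groups did not overlap. SLC39A14 fell by 1.83 in MA against MSC (SE 0.20, limma adjusted p = 2.55e-07). DED was higher than MA by 2.93 (SE 0.20) and than MSC by 1.11 (SE 0.20), and the group means of MA and MSC were under the background limit.

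Of the 2 secreted iron-sequestering proteins, LTF was high in MA and LCN2 was near background in all groups. LTF, which binds ferric iron and is best known from milk and neutrophil granules, was at 10.59, 11.29, 11.08, 12.11 and 10.99 in MA arrays 1 to 5. It was at 6.38, 6.53, 6.58, 5.97 and 6.15 in DED and at 5.98, 5.78, 6.45, 5.55 and 5.85 in MSC. Only MA was above the background limit. LTF rose by 5.29 in MA against MSC (SE 0.22, limma adjusted p = 1.5e-13), place 44 from the top among the 17687 genes. In DED it was lower than in MA by 4.89 (SE 0.22), place 5 from the bottom, and its DED and MSC arrays overlapped, with a difference of 0.40 (SE 0.22). The 11 measured neutrophil markers all stayed under the background limit, with list means per array from 4.91 to 5.06 in MA and from 4.82 to 5.06 in DED, and MPO, which marks the granules, was at 6.44 in MA and 6.09 in DED. Below that limit the granule collagenase gene MMP8 rose by 0.97 in MA against MSC (limma adjusted p = 0.0039) and fell by 0.91 in DED against MA (adjusted p = 0.0085), and CXCR2 rose by 0.57 in DED against MA (limma adjusted p = 0.0047). The part of such cells in the LTF values was not tested.

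LCN2, which captures bacterial siderophores and is an adipokine, was at 5.36 ± 0.19 in DED, 5.12 ± 0.24 in MA and 5.17 ± 0.30 in MSC (SD, n = 5). All arrays lay between 4.77 and 5.70, under the background limit, and the groups overlapped. The difference of MA from MSC was -0.052 (SE 0.15, limma adjusted p = 0.84). At this level the size of a difference depends on background. SLC22A17, proposed as the receptor of LCN2, fell by 0.56 in DED against MA (SE 0.13, limma adjusted p = 0.0018).

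**Figure D4:**
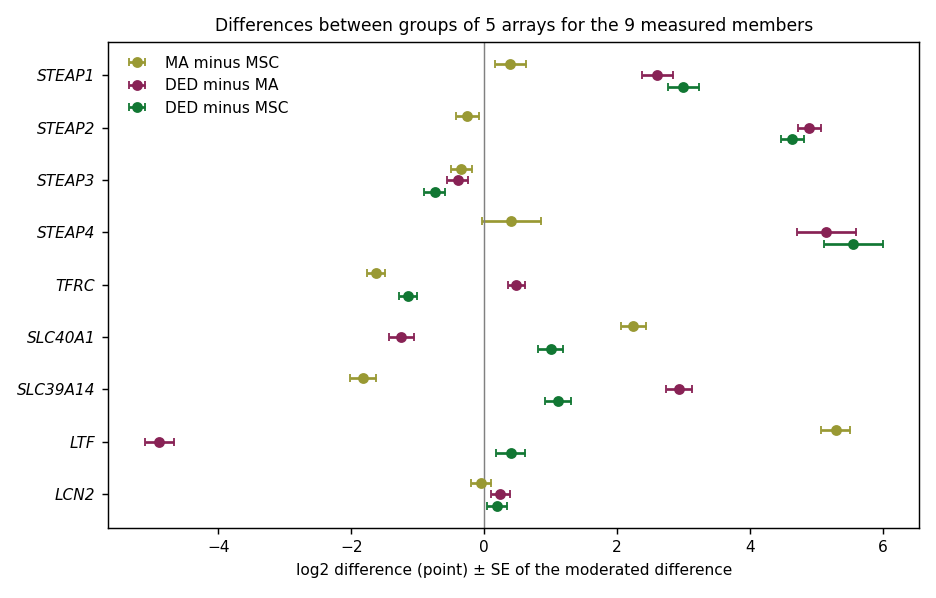
Log2 differences (points) with the SE of the moderated difference (bars) for the 9 measured genes in MA minus MSC, DED minus MA and DED minus MSC, from 5 arrays a group. The SE rests on 1 spread shared by all groups, although STEAP4, STEAP2 and STEAP1 spread more in DED. TFRC and SLC39A14 lie at -1.63 and -1.83 in MA minus MSC, where SLC40A1 and LTF lie at 2.24 and 5.29, and in DED minus MA, which shares the MA arrays, TFRC, SLC39A14, SLC40A1 and LTF lie at 0.48, 2.93, -1.25 and -4.89.

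The comparison of MA with MSC is the one that did not choose the set, although it shares its MA arrays with the one that did. LTF and SLC40A1 rose, 2 of 9 genes where 15.4% of all genes rose, and TFRC and SLC39A14 fell, 2 of 9 where 17.6% of all genes fell (limma adjusted p under 0.05). The median difference of the 9 was -0.052, against -0.002 over all genes. In 5 of 9 the arrays of the groups did not overlap, against 27.0% of all genes. The fifth was STEAP4, by the gap between 5.34 and 5.35, at a difference of 0.41 (SE 0.44, limma adjusted p = 0.55). Fitted without the DED arrays its adjusted p was 0.046 (0.046 to 0.72 over 24 alternatives), a fit whose estimate of the spread leaves out the DED arrays.

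STEAP1 was at 0.39 in MA against MSC (SE 0.24, limma adjusted p = 0.23), with 0.049 when the DED arrays were left out of the fit and 0.038 without DED array 3 (0.038 to 0.45 over 24 alternatives). STEAP3 was at -0.35 (SE 0.16, limma adjusted p = 0.12), with 0.041 without MSC array 1 (0.041 to 0.25 over 24 alternatives). STEAP2 was at -0.25 (SE 0.17, limma adjusted p = 0.29).

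In DED against MA, the comparison that chose the set, the means of 6 of the 9 genes were higher and 3 lower, and the arrays of 7 did not overlap, which is a description without a test. Of all genes 12.9% rose and 13.0% fell there, and 18.1% did not overlap. Nothing is read from the counts of the 9 genes. STEAP4 held place 3 from the top, STEAP2 place 6, SLC39A14 place 38 and STEAP1 place 59. In DED against MSC, which shares the DED arrays, the arrays of 6 of the 9 genes did not overlap, again a description. Of all genes 17.1% rose and 16.4% fell there, and 25.1% did not overlap.

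Of 95 other genes of iron, heme and copper handling, listed by role, 85 were measured. In DED against MA 10 of the 85 rose and 18 fell, beside the 12.9% and 13.0% of all genes given above, with a median of -0.076 against 0.018 over all genes. In MA against MSC 19 rose and 9 fell, together 32.9% of the list beside 33.0% of all genes, with a median of 0.068 against -0.002. In DED against MSC 20 rose and 12 fell, together 37.6% beside 33.4% of all genes, with a median of 0.064 against 0.028. In DED against MA the calls together were 32.9% beside 25.9%. By role they were 50% of 4 reductases, 50% of 10 uptake genes, 40% of 5 storage genes and 47.6% of 21 heme genes. They were 26.7% of 15 mitochondrial genes, 25% of 8 cytosolic genes and 33.3% of 9 copper genes. Calls were 0 of 10 export and hepcidin genes and 0 of 3 iron regulatory genes. These lists are small and were not tested as lists. The genes counted as higher in DED include STEAP1B, whose values cannot be told apart from those of STEAP1, a gene of the chosen set. Without DED arrays 1 and 3, 10 rose and 21 fell in DED against MA. The comparisons share arrays, so their values are set side by side and not counted as separate evidence. A difference with a group mean under the background limit depends on background. Below, this holds among others for CD163, SLC11A2, SLC25A37, FLVCR2, HMOX1, UROD, BDH2, HFE, FRRS1 and CIAO3, and for HP against MSC.

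Among 10 other genes of iron uptake 2 rose and 3 fell in DED against MA. SLC39A8 (ZIP8), the closest relative of SLC39A14, was at 12.41 ± 0.61 in DED, 9.95 ± 0.17 in MA and 8.71 ± 0.21 in MSC (SD, n = 5). It rose by 2.47 in DED against MA (SE 0.21, limma adjusted p = 2.1e-08) and by 1.23 in MA against MSC (SE 0.21, limma adjusted p = 8.6e-05), so that its order of groups was not that of SLC39A14. SLC11A2, which carries ferrous iron out of the endosome, rose from 7.52 ± 0.30 to 9.01 ± 0.28 (1.49, SE 0.17, limma adjusted p = 1.0e-06), and all DED arrays (8.66 to 9.43) were above all MA arrays (7.13 to 7.84). TF, transferrin itself, fell by 1.06 (SE 0.18, limma adjusted p = 1.1e-04) and SCARA5, a ferritin receptor, by 0.74 (SE 0.19, adjusted p = 0.0062). Both rose in MA against MSC, by 1.17 and 1.12 (limma adjusted p = 2.1e-05 and 9.2e-05), and all their group means were under the background limit.

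Of the 4 measured reductases outside the member list, STEAP1B was higher in DED than in MA, as given above without a test, and CYBRD1 fell. CYBRD1, the duodenal ferric reductase, rose by 1.498 in MA against MSC (SE 0.12, limma adjusted p = 5.0e-09). In DED against MA it was at -0.37 (SE 0.12, limma adjusted p = 0.029), with adjusted p from 0.050 to 0.062 without any 1 of DED arrays 2 and 4 and MA arrays 1, 3 and 4. FRRS1, a relative of the cytochrome b561 reductases, fell by 1.42 in MA against MSC (SE 0.22, limma adjusted p = 3.9e-05). In DED against MA it was at -0.57 (SE 0.22, limma adjusted p = 0.072). It passed there under some alternatives, among them array weights (adjusted p = 0.029), DED array 1 left out (0.0031) and DED arrays 1 and 3 left out (0.013). Its means of 7.44 in MA and 6.87 in DED were under the background limit.

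Of 5 measured genes of iron storage 2 fell in DED against MA, by small amounts: BDH2 by 0.39 (SE 0.13, limma adjusted p = 0.029) and NCOA4, the receptor for ferritin breakdown, by 0.28 (SE 0.10, adjusted p = 0.046). Both calls are fragile: NCOA4 missed the threshold without any 1 of MA arrays 1, 2, 3 and 5, DED arrays 2 to 5 or the MSC arrays, and with the replicate block (adjusted p = 0.058), and BDH2 without any 1 of MA arrays 1 to 3 or DED arrays 3 to 5 (adjusted p from 0.054 to 0.077). FTL, the ferritin light chain, was at 16.35 ± 0.14 in DED, 16.15 ± 0.08 in MA and 15.94 ± 0.10 in MSC (SD, n = 5), a difference of DED from MA of 0.19 (SE 0.10, limma adjusted p = 0.18). Its adjusted p was 0.045 with an intensity trend and robust fit. Of the 10 genes of export and the hepcidin axis 0 passed limma's test in that comparison at the adjusted threshold and 1 had an unadjusted p under 0.05. That gene, HFE, was at -0.31 (SE 0.11, limma adjusted p = 0.0504) and passed under 7 alternatives, among them array weights (adjusted p = 0.016), quantile normalization (0.042) and DED arrays 1 and 3 left out (0.033). Among them the ferroxidases HEPH and CP were at 5.31 ± 0.12 and 4.55 ± 0.25 in DED and at 4.98 ± 0.27 and 4.63 ± 0.27 in MA, and hepcidin itself (HAMP) was at 7.18 ± 0.20 and 7.10 ± 0.28, all under the background limit. HEPH fell by 0.81 (SE 0.21, limma adjusted p = 0.0043) and CP rose by 0.51 (SE 0.14, adjusted p = 0.0083) in MA against MSC. ACO1, which encodes the iron regulatory protein that doubles as cytosolic aconitase, rose by 0.51 in MA against MSC (SE 0.11, limma adjusted p = 6.5e-04) and was at 0.12 in DED against MA (SE 0.11, adjusted p = 0.48).

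Of 21 measured genes of heme handling 3 rose and 7 fell in DED against MA. CD163, the receptor for haptoglobin-hemoglobin complexes, rose from 6.66 ± 0.33 to 11.64 ± 0.69 (4.99, SE 0.25, limma adjusted p = 1.6e-11), and its DED arrays (10.89 to 12.47) were clear of MA (6.34 to 7.10). CD163 is best known from macrophages. Of the 11 macrophage markers 1 was above the background limit in DED and 2 in MA, with list means per array from 6.15 to 6.42 and from 6.29 to 6.35, and PTPRC, which marks all leukocytes, was under it at 5.76 and 5.51. Within the list CD14 rose by 1.40 (SE 0.23, limma adjusted p = 7.6e-05), from 5.51 ± 0.26 to 6.91 ± 0.58 and under the background limit in both groups, while CD68 fell by 1.18 and MARCO by 0.87 (limma adjusted p = 1.0e-05 and 0.0033). The part of such cells in the CD163 values was not tested. HP, haptoglobin, rose by 1.20 (SE 0.25, limma adjusted p = 9.0e-04), and its DED arrays (9.25 to 10.92) overlapped those of MA (8.74 to 9.32). It rose by 1.92 in MA against MSC (SE 0.25, limma adjusted p = 2.8e-06), and its sequence is close to that of HPR. HMOX1, which breaks heme down and frees its iron, was at 7.39 ± 0.15 in DED and 7.404 ± 0.15 in MA (difference -0.018, SE 0.12, limma adjusted p = 0.94). It rose by 0.44 in MA against MSC (SE 0.12, limma adjusted p = 0.0071) and by 0.42 in DED against MSC (SE 0.12, adjusted p = 0.0094). The call in DED against MSC was lost without DED arrays 1 and 3 (limma adjusted p = 0.0775). All HMOX1 group means were under the background limit. In DED against MA FLVCR2, of a family of heme and choline transporters, fell by 1.25 (SE 0.19, limma adjusted p = 3.3e-05). It rose by 2.26 in MA against MSC (SE 0.19, adjusted p = 6.0e-09). UROD, an enzyme of heme synthesis, fell by 0.80 in DED against MA (SE 0.14, limma adjusted p = 1.7e-04).

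Of 15 mitochondrial genes of iron and iron-sulfur assembly 1 rose and 3 fell in DED against MA, together 26.7% beside 25.9% of all genes. SLC25A37 (mitoferrin 1), which brings iron into mitochondria, rose from 7.196 ± 0.17 to 8.82 ± 0.51 (1.62, SE 0.20, limma adjusted p = 2.5e-06), and NFU1, a carrier of iron-sulfur clusters, fell by 0.74 (SE 0.12, limma adjusted p = 1.1e-04). Of 8 cytosolic assembly genes 1 rose and 1 fell, together 25% beside the same 25.9%. MMS19 fell by 0.77 (SE 0.12, limma adjusted p = 5.7e-05) and CIAO3 rose by 0.50 (SE 0.17, adjusted p = 0.040), a call lost without any 1 of MA arrays 1 to 4 or DED arrays 2 and 3 (adjusted p from 0.051 to 0.12). Of 9 copper genes 2 rose and 1 fell. SLC31A1, the importer of the reduced copper that STEAP proteins produce, rose from 13.20 ± 0.10 to 14.53 ± 0.27 (1.33, SE 0.12, limma adjusted p = 6.1e-08), and fell by 1.61 in MA against MSC (SE 0.12, limma adjusted p = 1.7e-09). Its DED arrays (14.13 to 14.89) were clear of MA (13.11 to 13.32).

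Set against the undifferentiated cells and among the 85 other genes, DED was highest above MSC in CD163, by 5.46 (SE 0.25, limma adjusted p = 4.8e-13). SLC39A8 followed, by 3.70 (SE 0.21, limma adjusted p = 1.5e-11), and then HP, by 3.12 (SE 0.25, adjusted p = 2.4e-09). FTL rose by 0.41 (SE 0.10, limma adjusted p = 0.0027), ACO1 by 0.63 (SE 0.11, adjusted p = 7.3e-05) and CYBRD1 by 1.12 (SE 0.12, adjusted p = 2.8e-07). FRRS1 fell by 1.98 (SE 0.22, limma adjusted p = 4.8e-07). SLC31A1 was at -0.28 (SE 0.12, limma adjusted p = 0.086), from 14.81 ± 0.10 in MSC and 14.53 ± 0.27 in DED (SD, n = 5).

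**Figure D5:**
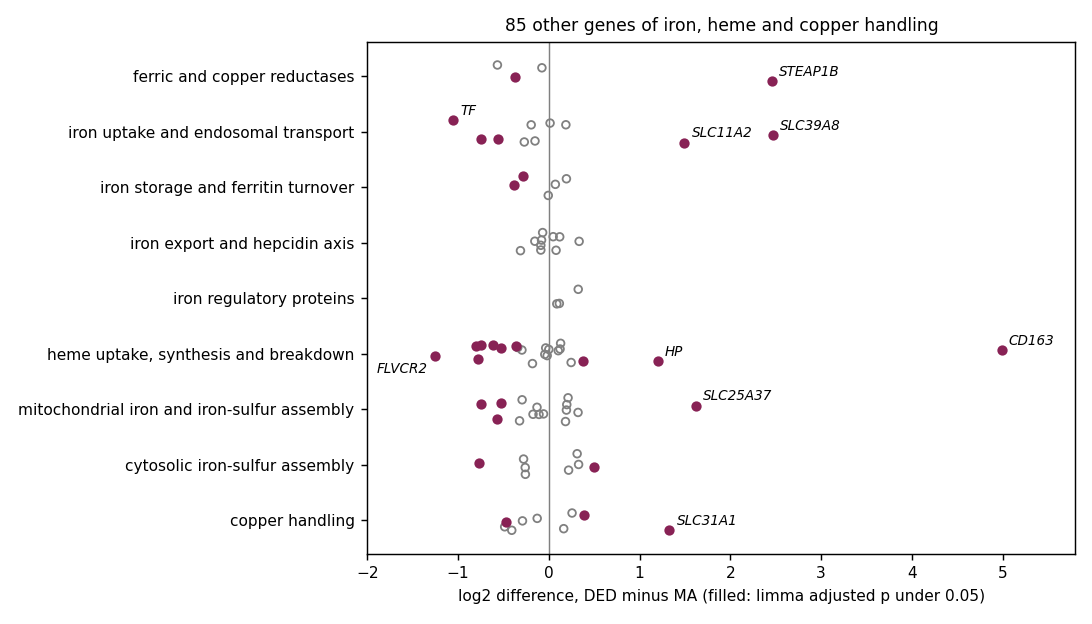
Log2 difference of DED minus MA (horizontal axis) for 85 other genes of iron, heme and copper handling, by role (rows; vertical scatter within a row carries no value); filled points passed limma's test at an adjusted p under 0.05. Most points lie within 1 of zero, and CD163 (4.99), SLC39A8 (2.47), STEAP1B (2.45), SLC25A37 (1.62), SLC11A2 (1.49), SLC31A1 (1.33) and HP (1.20) lie furthest to the right. STEAP1B cannot be counted apart from STEAP1, a gene of the chosen set.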

How the data were processed

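RNA of 15 arrays was measured, 5 in each of MSC, MA and DED, with groups read from the titles. A table of log2 intensities was deposited by the authors; per the submitters' processing notes it comes from RMA and Transcriptome Analysis Console, with versions and probe set build not given in the sources used here. RMA evens out the arrays, so a shift shared by all genes cannot be read. Symbols came from the platform annotation, and the probe set with the highest mean stood for a gene with several (17687 genes). Tests used limma 3.58.1 (R 4.3.3; 1 mean per group, all arrays sharing the spread, two-sided, Benjamini-Hochberg adjustment over all genes, threshold 0.05), after a check on simulated data. The number of arrays limits precision. Differences with a group under the 95th percentile of 612 negative controls are not given as folds. Members, lists and tests were chosen with earlier results of these data known. Named genes were the 10 members, 13 fixed genes, of which IREB2 was not matched, the largest called changes per list, the 5 most correlated genes and the nearest neighbours. Same-numbered arrays of different groups were not paired (correlations of deviations from -0.108 to 0.087). Alternatives were other normalizations, filters, spreads, array weights, a replicate block and left-out arrays.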

Additional observations from a re-analysis of the deposited data

Results flagged for a closer look

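In 63 groups of 5 arrays (members and fixed genes), 5 held an array far from the other 4 by Dixon's criterion, which chance gives in about 1 of 20 groups. STEAP1 was at 12.02 in DED array 3, against 13.28 to 13.73 in the other DED arrays. LCN2 was at 5.70 in DED array 4, against 5.23 to 5.31. CYBRD1 was at 12.32 in MSC array 2, against 12.85 to 13.05. STEAP1B was at 9.46 in MA array 5, against 9.77 to 9.89, and STEAP1 in that array was at 10.84, the highest of MA. CD163 was at 6.69 in MSC array 3, against 5.99 to 6.15.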

How the results depend on the processing

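Across 24 alternatives the members called in MA against MSC numbered 4 to 6 (4 in the report, 6 when only the groups compared were fitted), and 4 to 5 with 1 array left out. The other genes of iron and copper handling called numbered 23 to 32 in MA against MSC, 22 to 34 in DED against MA and 28 to 35 in DED against MSC, against 28, 28 and 32 in the report. With the replicate block they numbered 28, 27 and 31, and no member's call in MA against MSC changed. Over 642 alternative values of the 27 member differences, the sign changed in 3, all of LCN2 in MA against MSC, and the largest shift was 0.576, that of STEAP4 in DED against MA without DED array 3. DED array 3 moved no called count by over 1.5 times. No member had several probe sets, so that alternative was not run. Leaving out DED arrays 1 and 3 for the counts was added after seeing the data. Signal near background limits STEAP4, SLC40A1, SLC39A14, LTF and LCN2.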
